A study of Rattus norvegicus with 4 samples.

Results

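The cells described here are Ptgs2-positive stromal cells of rat fascia that carry Cd34 and Pdgfra, the marker pair by which telocytes are usually recognised. A cell was a member when it had at least 1 UMI (a unique molecular identifier, the tag that counts 1 captured RNA molecule) of each of Cd34, Pdgfra and Ptgs2. It also had to lie in a stromal gate: at least 30 UMIs per 10000 from Col1a1, Col1a2, Col3a1, Dcn, Mfap5 and Serpinf1 together, and no UMI of Ptprc or Pecam1. The rule found 1999 members among 34904 cells kept, namely 505 and 766 cells in acupuncture replicates 1 and 2 and 136 and 592 cells in dysentery replicates 1 and 2. The levels of Ptgs2, Cd34 and Pdgfra chose the members and are given below as a description only. The lowest stromal gate level of a member was 221, 262, 154 and 173 UMIs per 10000 in the 4 libraries, and no Cd34+ Pdgfra+ Ptgs2+ cell lay just below the gate.

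All 4 libraries came from the abdominal midline fascia of rats made dysenteric with Salmonella, a layer the tissue label calls subcutaneous fascia. The 2 libraries of the acupuncture group came from dysenteric rats after acupuncture, and the 2 of the dysentery group from dysenteric rats without it, so no library came from healthy tissue and both groups carry the infection. The labels used here give no strain, age or needling time, and do not say whether each library was 1 animal. The p-values below therefore reflect spread among the 4 libraries, which may be technical. Sample titles set the groups here. In all 4 libraries the treatment field gives the other group, and were it the correct one, each sign between the groups would be reversed. Fascia was digested with collagenase and elastase, and red and dead cells were removed before droplet capture. The deposited matrices held between 53066666 and 93897006 UMIs in 7965 to 11327 cells per library. Dysentery replicate 1 stood apart, with the fewest members and with 6665 of its 7965 cells within the mitochondrial and gene limits. No cell barcode was repeated between libraries among the members (0 of 1999), against 128 repeated barcodes among all cells kept.

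Ptgs2 encodes cyclooxygenase-2, the inducible enzyme that turns arachidonic acid into the precursor of prostaglandins. Its gene is transcribed within a short time of cytokine, growth factor or mechanical stimulation, through NF-kB, C/EBP and cAMP-responsive elements, and its mRNA carries signals for rapid decay. Prostaglandin E2 made from this precursor acts on nearby cells, macrophages included. Telocytes are interstitial cells with long thin processes. Cd34 and Pdgfra are shared with progenitor-like fibroblasts of fascia and skin, so the pair marks both.

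The sequences upstream of 4 genes on which the results turn are shown because Ptgs2 and its companions are textbook targets of these factors. The 4 genes were chosen after their values were seen. Each line gives the 250 bases before the annotated start in RefSeq's GRCr8 build, 5′ to 3′ on the gene's strand, with the base next to the start at the right end. Capitals mark matches to the NF-kB motif (GGG, any 2 bases, then TTTCC), TTNNGCAAT (C/EBP), TGACGTCA (the cAMP-responsive element) or CACGTG (an E-box), searched on both strands.
Ptgs2: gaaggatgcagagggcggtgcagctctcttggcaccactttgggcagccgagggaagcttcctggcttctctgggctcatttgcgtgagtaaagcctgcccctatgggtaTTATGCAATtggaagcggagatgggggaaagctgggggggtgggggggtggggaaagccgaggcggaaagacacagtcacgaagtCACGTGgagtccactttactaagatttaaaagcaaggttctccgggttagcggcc
Il6: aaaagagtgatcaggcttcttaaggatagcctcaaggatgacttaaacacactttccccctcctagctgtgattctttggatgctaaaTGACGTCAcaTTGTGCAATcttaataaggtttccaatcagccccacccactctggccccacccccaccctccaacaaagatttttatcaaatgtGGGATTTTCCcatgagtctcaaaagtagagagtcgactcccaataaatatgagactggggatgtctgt
Cxcl1: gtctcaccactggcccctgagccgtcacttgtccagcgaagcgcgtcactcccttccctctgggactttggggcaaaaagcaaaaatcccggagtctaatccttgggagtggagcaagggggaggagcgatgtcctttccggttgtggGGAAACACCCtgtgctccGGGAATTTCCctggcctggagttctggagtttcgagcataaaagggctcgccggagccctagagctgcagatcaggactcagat
Nfkbiz: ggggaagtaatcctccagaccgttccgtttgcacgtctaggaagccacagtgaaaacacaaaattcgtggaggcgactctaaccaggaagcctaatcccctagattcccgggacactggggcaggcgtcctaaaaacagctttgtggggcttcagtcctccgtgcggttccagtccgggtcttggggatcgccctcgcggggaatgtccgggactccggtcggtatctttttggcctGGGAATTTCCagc
The Ptgs2 sequence (chr13:64713813-64714062, plus strand) holds a C/EBP match from 140 to 132 bases before the start and an E-box from 55 to 50 bases. The Il6 sequence (chr4:5894576-5894825, minus strand) holds a cAMP-responsive element, a C/EBP match beside it, and an NF-kB match from 68 to 59 bases before the start. The Cxcl1 sequence (chr14:17479322-17479571, minus strand) holds 2 NF-kB matches, from 102 to 93 and from 84 to 75 bases. The Nfkbiz sequence (chr11:58251471-58251720, plus strand) holds 1, from 13 to 4 bases before the start. Of 33360 upstream sequences of the same length, 1.30% held the NF-kB letters, 2.04% the C/EBP letters, 1.59% the cAMP-responsive letters and 5.61% the E-box. A match describes the letters and shows neither binding nor use.

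Ptgs2 itself was spread unevenly over the members. Summed over all members of a library, its level was 1008 and 1069 CPM (a gene's UMIs scaled to 1 fixed total of UMIs for every sum of cells) with acupuncture, and 196 and 268 CPM without. The median member held 5 and 7 Ptgs2 UMIs with acupuncture and 1 and 2 without, and the highest member held 150, 144, 13 and 19. Cells with 10 or more Ptgs2 UMIs made up 32.7% and 44.4% of the members with acupuncture, against 3.68% and 2.03% without. These strongly positive cells carried 84.8% and 89.0% of the members' Ptgs2 UMIs with acupuncture and 19.0% and 10.1% without. The members were 6.12%, 8.28%, 2.04% and 5.51% of the cells kept and held 54.2%, 50.0%, 25.8% and 33.6% of all their Ptgs2 UMIs. The plot of Ptgs2 UMIs per cell shows this shift from single UMIs to high counts.

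**Figure D1:**
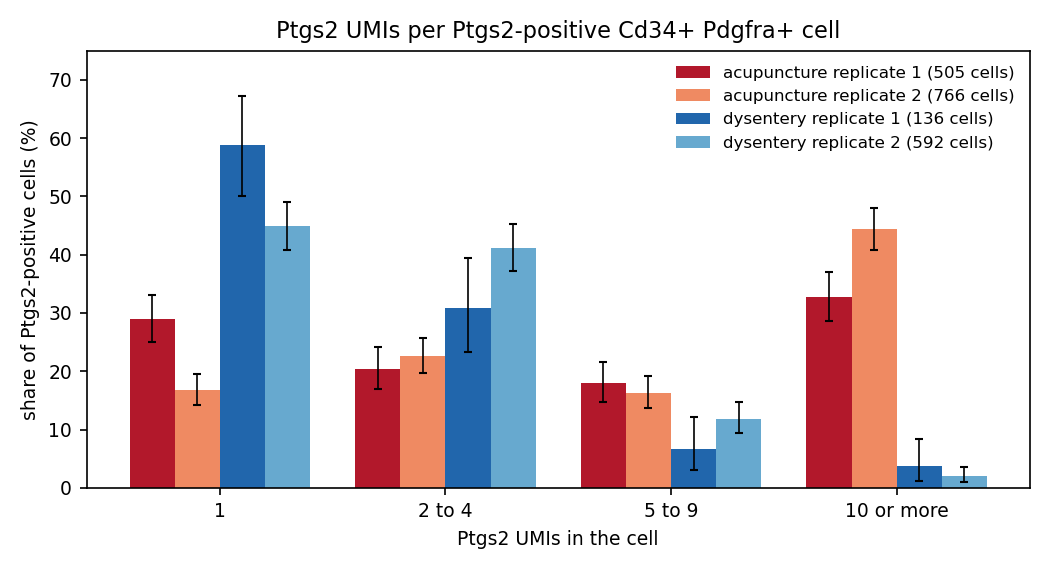
Share of Ptgs2-positive Cd34+ Pdgfra+ cells (y axis, %) by the number of Ptgs2 UMIs in the cell (x axis) in each library. Bars are shares with 95% Clopper-Pearson intervals, which cover counting error only. Cells with 10 or more UMIs were 32.7% and 44.4% of members with acupuncture and 3.68% and 2.03% without.

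How many Cd34+ Pdgfra+ cells were Ptgs2-positive depended on depth. Unthinned, 31.6% and 54.0% were positive with acupuncture and 16.5% and 31.4% without. Members were also deeper than Ptgs2-negative cells, with medians of 13093, 15897, 11172 and 9208 against 8609, 10420, 9462 and 8342 UMIs. Each stromal cell was then thinned to 2000 UMIs, and Cd34, Pdgfra and Ptgs2 were all read from the thinned UMIs. Fewer cells then count as Cd34+ Pdgfra+, 363 against 1600 in acupuncture replicate 1. Of these, 13.2% of 363 cells and 23.8% of 193 cells were positive with acupuncture (95% Clopper-Pearson bounds 9.91 and 17.1, then 18.0 and 30.5). Without it the shares were 3.33% of 150 cells (bounds 1.09 and 7.61) and 16.7% of 348 cells (bounds 12.9 and 21.0). The group difference was 8.53 percentage points (two-sided exact permutation test, p = 0.667, where 2 libraries against 2 cannot go below 0.333). At 2000 UMIs the groups overlapped, since dysentery replicate 2 lay above acupuncture replicate 1, as they did at 5000 UMIs. They did not overlap at 1000 UMIs, unthinned, or with Ptgs2 counted from 2 UMIs (exact permutation p = 0.333 in each, the smallest possible). With 2 libraries against 2 the test cannot pass the threshold in any setting, so no group difference in share is concluded from it. Leaving out 1 library moved the difference between 1.86 points, without dysentery replicate 1, and 15.2 points, without dysentery replicate 2.

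Ptgs2 was also found in the other stromal cells of each library. Unthinned, it had a UMI in 18.5%, 30.8%, 15.6% and 26.7% of gate cells with Cd34 only and in 22.3%, 36.4%, 10.8% and 25.2% of those with Pdgfra only. These classes were less deep than Cd34+ Pdgfra+ cells, so the unthinned shares are not at equal depth. In acupuncture replicate 1 the medians were 4118.5 UMIs with Cd34 only and 6643 with Pdgfra only, against 9993 in Cd34+ Pdgfra+ cells. After thinning, many cells that carry a marker no longer show it: gate cells with neither went from 510 to 1249 in acupuncture replicate 1. The thinned classes therefore share cells of the same kind, and no test between them is given. At 2000 UMIs the shares were 15.7%, 23.7%, 3.16% and 11.8% with Cd34 only. They were 12.98%, 25.6%, 4.91% and 11.8% with Pdgfra only, and 20.02%, 28.7%, 4.97% and 13.5% with neither. Cd34+ Pdgfra+ cells, at 13.2%, 23.8%, 3.33% and 16.7%, were the highest of the 4 classes in dysentery replicate 2 only. The lower unthinned shares of the other classes therefore do not show that Ptgs2 is enriched in the pair. T cells, which should lack the gene, gave a background of 0.583%, 1.04%, 0.380% and 0%, with median depths of 5720, 6087, 5626 and 5280 UMIs before thinning against 7113, 9774, 7015 and 6462 UMIs in the Cd34+ Pdgfra+ cells. The 0 of 345 T cells in dysentery replicate 2 allow a share of cells with a UMI of up to 0.870% (3 counts of the total). Leukocytes gave 4.05%, 3.89%, 1.56% and 0.421%. The plot of shares at equal depth shows the 4 stromal classes, as read after thinning, above T cells in each library.

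**Figure D2:**
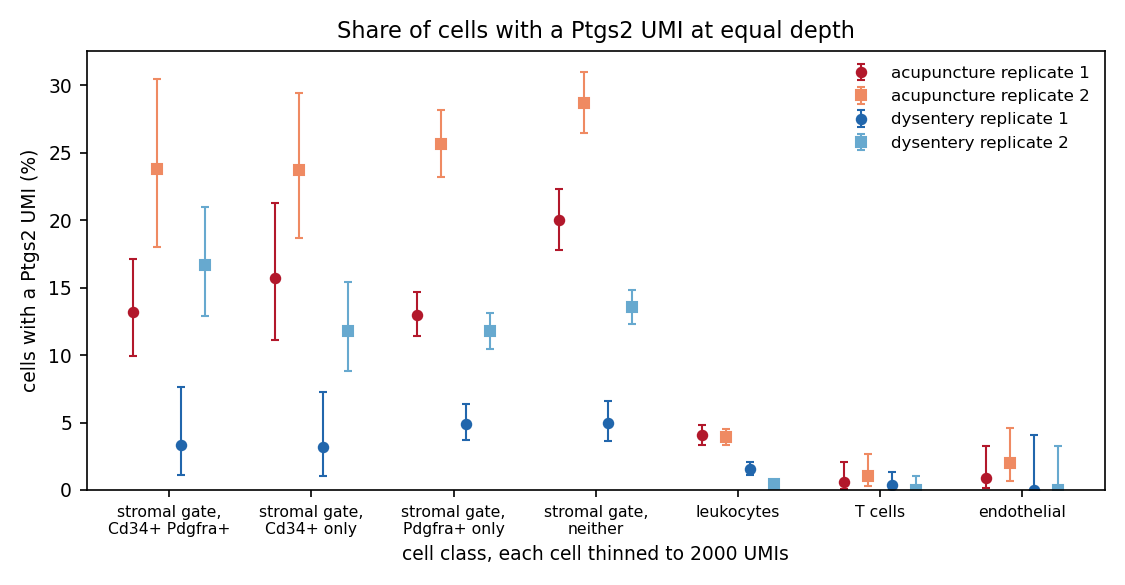
Share of cells with a Ptgs2 UMI (y axis, %) by cell class (x axis), each cell thinned to 2000 UMIs. Points are libraries with 95% Clopper-Pearson intervals, which cover counting error only. Classes were read after thinning. The stromal classes run from 3.16% in Cd34+ only cells of dysentery replicate 1 to 28.7% in acupuncture replicate 2 cells with neither marker.

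The name telocyte rests on the marker pair alone. Of the other genes linked to telocytes and progenitor fibroblasts, Vim had a UMI in 98.8% to 100% of members and Sema3c in 97.4% to 99.3%. The progenitor fibroblast genes Pi16 and Dpp4 had one in 96.9% to 99.3% and in 95.1% to 97.3%. Kit, which marks telocytes in some organs, and Foxl1, a marker of intestinal telocytes, had no UMI in any of the 1999 members. Gli1, a Hedgehog target of some mesenchymal niche cells, had one in 0.169% to 2.21% of members. Cd55, of the same progenitor fibroblasts, had one in 83.6%, 75.5%, 81.6% and 89.5%. These shares count cells with a UMI and were not set against a background. None of them separates a telocyte from a progenitor fibroblast.

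To ask what else the Ptgs2-positive cells carry, each was matched within its library to 1 Ptgs2-negative Cd34+ Pdgfra+ cell of like depth. This gave 412, 436, 134 and 586 pairs, leaving 93, 330, 2 and 6 deep members without a partner. Counts were summed per library and status and tested with edgeR's quasi-likelihood test with the library as a block. A gene was called at a Benjamini-Hochberg adjusted p under 0.05. Of 10568 genes tested, 177 were called (1.67%), 115 higher (1.09%) and 62 lower (0.587%) in the positive cells. The 11 genes of the rule were not tested.

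Ptgs2-positive cells carried more RNA for Cxcl1, Il6 and Ptx3, which serve neutrophil recruitment and the acute inflammatory response. For Il6 and Ptx3 this rests on the acupuncture libraries, and Ptx3 was lower in the positive cells of dysentery replicate 1. With DESeq2, Il6 kept the call, and Cxcl1 (adjusted p = 0.322) and Ptx3 (adjusted p = 1) did not. Cxcl1, a chemokine for neutrophils, stood at 2612 and 2845 CPM with acupuncture and 36.5 and 142 CPM without in positive cells. In the matched negative cells it stood at 583 and 567 CPM with acupuncture and 33.2 and 73.0 CPM without. The positive cells were higher in every library, by 4.48, 5.02, 1.10 and 1.94 times in the order acupuncture 1 and 2, dysentery 1 and 2 (log2 difference 1.73 ± 0.24, adjusted p = 0.00499). The 1.10 times in dysentery replicate 1 rests on few cells: 5 members with 10 or more Ptgs2 UMIs held 28 Cxcl1 UMIs. Its members with 1, 2 to 4 and 5 to 9 Ptgs2 UMIs stood at 21.6, 20.6 and 8.39 CPM, below its matched negative cells. Il6, the cytokine of the acute phase response, had 239 and 174 CPM with acupuncture and 0 and 0.916 CPM without in positive cells and 67.6 and 37.6 CPM with acupuncture and 0 and 0.550 CPM without in negative cells (log2 difference 2.01 ± 0.11, adjusted p = 2.02e-05). Its dysentery levels rest on 5 UMIs in all members of both libraries together, so its values come almost wholly from the acupuncture libraries. Ptx3, a long pentraxin that also binds the hyaluronan matrix, had 165 and 262 CPM with acupuncture and 0.651 and 2.02 CPM without against 44.1 and 39.1 CPM with acupuncture and 3.26 and 1.47 CPM without (log2 difference 2.26 ± 0.21, adjusted p = 0.000862). Of 11 chemokines tested, 1 rose, Cxcl1, and 0 fell (median log2 difference 0.052, against 0.0060 over all genes tested). Without dysentery replicate 1, 5 of 12 rose and 1 fell, and DESeq2 called 0. Of 7 IL-6 family and colony-stimulating cytokines, 1 rose, Il6. Il33, an alarmin of stromal cells, did not pass (log2 difference 0.20 ± 0.047, adjusted p = 0.0581), and Csf1, the macrophage growth factor, did not either (log2 difference 0.13 ± 0.063, adjusted p = 0.44).

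Of 18 NF-kB subunits and feedback genes, 3 rose and 0 fell (median 0.24), of which DESeq2 called 1. Nfkbiz, an inducible nuclear cofactor that NF-kB needs at Il6, stood at 384 and 236 CPM with acupuncture and 16.9 and 11.4 CPM without against 99.8 and 67.4 CPM with acupuncture and 7.81 and 10.8 CPM without (log2 difference 1.63 ± 0.20, adjusted p = 0.00377). Nfkbia, the inhibitor that NF-kB induces against itself, stood at 832 and 937 CPM with acupuncture and 141 and 167 CPM without against 304 and 347 CPM with acupuncture and 132 and 136 CPM without (log2 difference 0.91 ± 0.20, adjusted p = 0.0427). Icam1, the leukocyte adhesion receptor, followed at 89.6, 77.4, 16.3 and 13.9 CPM against 32.8, 35.1, 12.4 and 10.3 CPM, in the library order above (log2 difference 1.12 ± 0.14, adjusted p = 0.00405). For all 3 genes the acupuncture libraries showed positive cells at 2.21 to 3.84 times the negative cells, and the dysentery libraries at 1.05 to 2.17 times. Of 7 genes of cytokine mRNA stability, 3 rose, of which DESeq2 called 0, among them Arid5a, which protects Il6 mRNA (1.49 ± 0.21, adjusted p = 0.00567), and Zc3h12a, the nuclease that destroys it (0.97 ± 0.17, adjusted p = 0.0192).

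Immediate early genes, which are transcribed within minutes of many stimuli, gave the most calls of the gene lists. Of 24 tested, 16 rose and 0 fell, with a median log2 difference of 0.80. Without dysentery replicate 1, 21 rose, and DESeq2 called 9. Atf3, a stress-induced repressor, had 1495 and 1266 CPM with acupuncture and 82.1 and 49.1 CPM without in positive and 589 and 422 CPM with acupuncture and 43.0 and 40.5 CPM without in negative cells (log2 difference 1.15 ± 0.16, adjusted p = 0.00499). Fos, a subunit of AP-1, had 3237 and 3588 CPM with acupuncture and 932 and 946 CPM without against 1619.9 and 1773 CPM with acupuncture and 580.1 and 814 CPM without (log2 difference 0.73 ± 0.11, adjusted p = 0.00671). Gadd45b, a stress kinase activator, had 213, 275, 16.3 and 24.7 CPM against 101, 86.7, 9.77 and 16.3 CPM (log2 difference 1.22 ± 0.14, adjusted p = 0.00285). Each of these 3 was higher in the positive cells of all 4 libraries, by 1.16 times at the least, for Fos in dysentery replicate 2. The nuclear receptors of the Nr4a family, which respond to cAMP and prostaglandin E2, moved alongside. Nr4a1 had 440.2, 538, 102 and 63.2 CPM against 122, 151, 45.6 and 46.2 CPM (log2 difference 1.43 ± 0.19, adjusted p = 0.00405), and Nr4a2 (1.07 ± 0.20) and Nr4a3 (1.07 ± 0.21) were called too, at adjusted p of 0.022 and 0.0262. Among 10 C/EBP and cAMP response genes, 5 rose. Of 14 heat shock chaperones, 4 rose and 0 fell (median 0.39). Without dysentery replicate 1, 7 chaperones rose, and DESeq2 called 1. Dnajb1, an HSP40 co-chaperone, had 114, 134, 39.7 and 33.5 CPM against 54.9, 63.0, 31.9 and 24.9 CPM (log2 difference 0.86 ± 0.12, adjusted p = 0.00499).

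Further genes were among the largest rises. Hes1, a repressor induced by Notch, had 162, 153, 15.6 and 12.5 CPM against 58.3, 51.3, 8.46 and 11.004 CPM (log2 difference 1.33 ± 0.16, adjusted p = 0.00318). Bmp2, a bone morphogenetic protein and niche signal, had 69.3, 56.0, 11.7 and 13.7 CPM against 24.7, 19.0, 6.51 and 9.54 CPM (log2 difference 1.32 ± 0.15, adjusted p = 0.00285). Plk2, a stress-inducible kinase, rose with a log2 difference of 1.19 (adjusted p = 0.00405), Ccnl1, a cyclin of splicing complexes, by 1.17 (adjusted p = 0.00405), and Nedd9, an adhesion scaffold, by 1.09 (adjusted p = 0.00444). Positive cells stood above negative cells for Nedd9 in every library, at 2.47, 2.89, 1.67 and 1.47 times the negative cells.

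Genes that make and dress hyaluronan, the main gliding polymer of fascia, rose in part. Of 7 tested, 3 rose and 0 fell (Ptx3, Has1 and Has2), while DESeq2 called 0. Has1, a hyaluronan synthase abundant in fascia, had 777 and 405 CPM with acupuncture and 69.7 and 103 CPM without in positive and 348 and 113 CPM with acupuncture and 56.0 and 82.3 CPM without in negative cells (log2 difference 1.04 ± 0.20, adjusted p = 0.0262). Has2, the second synthase, had 192, 144, 117 and 141 CPM against 117, 74.7, 97.0 and 119 CPM (log2 difference 0.57 ± 0.11, adjusted p = 0.0266). Tnfaip6, which loads proteins onto hyaluronan during inflammation, did not pass over all libraries (log2 difference 0.54 ± 0.27, adjusted p = 0.491), and its sign differed between the groups as given below.

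**Figure D3:**
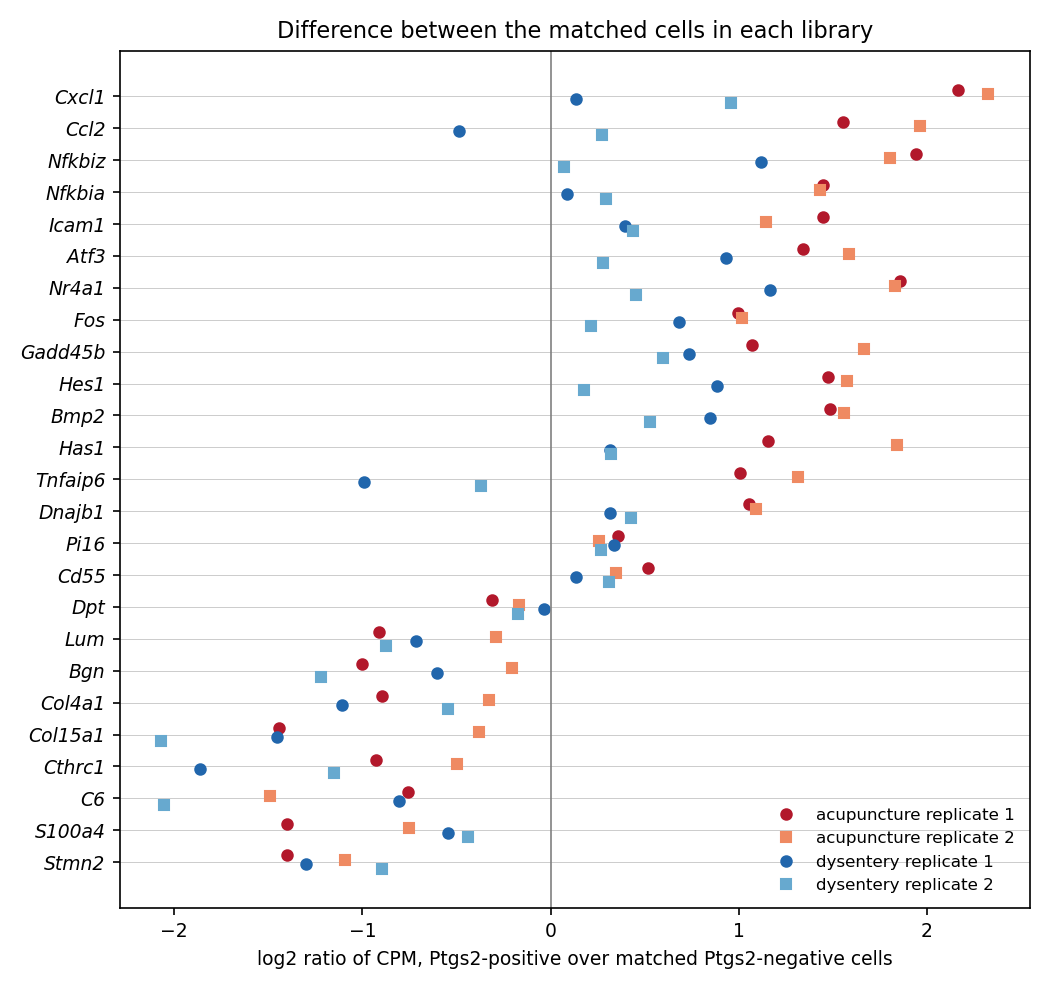
Log2 ratio of CPM in Ptgs2-positive over depth-matched Ptgs2-negative cells (x axis) for 25 genes (y axis), 1 point per library. Inflammatory and immediate early genes lie further to the right in the acupuncture libraries, as for Cxcl1 at 4.48 and 5.02 times with acupuncture and 1.10 and 1.94 times without, while Pi16 lies at 1.20 to 1.28 times in all 4.

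The progenitor genes Pi16 and Cd55 rose slightly in the positive cells, while 5 collagens and 2 small proteoglycans fell. Pi16, a peptidase inhibitor of adventitial progenitor fibroblasts, had 4059 and 3818 CPM with acupuncture and 2349 and 3459 CPM without against 3169 and 3187 CPM with acupuncture and 1859 and 2868 CPM without (log2 difference 0.30 ± 0.033, adjusted p = 0.00285). The ratio was 1.20 to 1.28 in all 4 libraries. Cd55, a complement regulator of the same cells, rose by 0.33 ± 0.069 (adjusted p = 0.035), Dpp4 did not pass (0.14 ± 0.050, adjusted p = 0.256), and Dpt, dermatopontin, fell (log2 difference -0.18 ± 0.038, adjusted p = 0.0408). Of 16 genes in that list, 2 rose and 1 fell. Of 13 collagens outside the rule, 0 rose and 5 fell, with a median of -0.30. Col15a1, a basement membrane zone collagen of perivascular fibroblasts, stood at 29.3, 37.6, 20.2 and 5.86 CPM in positive and 79.9, 48.9, 55.3 and 24.6 CPM in negative cells (log2 difference -1.13 ± 0.20, adjusted p = 0.0176). Col4a1, of the basement membrane itself, stood at 51.2, 89.2, 88.6 and 78.2 CPM against 95.1, 112, 191 and 114 CPM (log2 difference -0.68 ± 0.11, adjusted p = 0.00924). Of 15 proteoglycans and elastic fibre genes, 2 fell, lumican (Lum, -0.67 ± 0.093, adjusted p = 0.00499) and biglycan (Bgn, -0.74 ± 0.13, adjusted p = 0.0186), both of which bind collagen fibrils.

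The largest falls covered genes of varied function. Stmn2, a microtubule destabiliser, was at 65.9, 21.9, 19.5 and 16.7 CPM against 174, 46.7, 48.2 and 31.0 CPM (log2 difference -1.19 ± 0.090, adjusted p = 0.000112). C6, a complement component, was at 102, 12.5, 15.6 and 3.66 CPM against 172, 35.1, 27.3 and 15.2 CPM (log2 difference -1.06 ± 0.16, adjusted p = 0.0067). S100a4, a calcium-binding protein of fibroblasts and leukocytes, was at 308, 218, 552 and 471 CPM against 814, 368, 805 and 639.5 CPM (log2 difference -0.79 ± 0.11, adjusted p = 0.00567). These 3 were lower in the positive cells of all 4 libraries. Cav1 of caveolae (-1.24 ± 0.18), Igfbp7 (-1.05 ± 0.21), the matricellular Ccn2 (-0.95 ± 0.17), Itm2a (-0.87 ± 0.15), the injury-associated Cthrc1 (-0.82 ± 0.14) and Myoc (-1.34 ± 0.21) fell too, at adjusted p from 0.00567 to 0.0284. Single cells weighed on some of these sums: 1 cell held 61.7% of the Myoc UMIs and 60.0% of the Stmn2 UMIs in the matched positive cells of dysentery replicate 1. Hbb-b1, a haemoglobin chain of red cells, showed the largest fall (-3.19 ± 0.65, adjusted p = 0.0331), and 98.8% of its UMIs in the matched negative cells of acupuncture replicate 1 came from 1 cell. Haemoglobin genes are near-identical copies between which reads can be misassigned, so the values of single chains are uncertain.

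Markers of other cell types moved with this comparison in part. Of 11 macrophage markers tested, 3 fell (C1qa, C1qb and C1qc, the chains of complement C1q) and 0 rose. Their list summed to 293, 349.5, 248 and 221 CPM in positive and 478, 404, 423 and 185 CPM in matched negative cells, so dysentery replicate 2 went the other way. C1qc stood at 55.7, 67.6, 22.8 and 8.43 CPM against 91.7, 89.8, 72.9 and 17.2 CPM (log2 difference -0.75 ± 0.14, adjusted p = 0.022). Over 11 other ways of processing the data or leaving out 1 library, the C1qc difference ran from -1.36 to -0.093. The call held in 9 of them, so the fall of C1qc depends on the processing. Of 4 neutrophil markers tested, 2 rose, S100a8 and S100a9, and 1 cell held 70.4% and 89.3% of the S100a9 UMIs in the matched positive cells of the acupuncture libraries. The summed level of that list was 277, 308, 430 and 416 CPM in positive and 198, 173, 521 and 465 CPM in negative cells. In all members, the vascular endothelium markers summed to 60.1, 50.7, 65.4 and 98.9 CPM and the mural cell markers to 2.97, 5.32, 5.66 and 1.25 CPM. Single markers with no UMI in any member were Marco (macrophages), Emcn (endothelium), Notch3 (mural cells), Ppbp, Krt1, Lep and Pck1. Median mitochondrial shares were 2.11%, 2.15%, 2.71% and 2.32% in members and 2.53%, 2.49%, 2.74% and 2.36% in the matched negative cells. The part of other cells' RNA or of mitochondrial share in the calls was not tested.

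The number of calls fell when an acupuncture library was left out. Without acupuncture replicate 1, 43 genes were called, and without acupuncture replicate 2, 76, against 280 and 290 without dysentery replicate 1 or 2. Of 41 called genes named here, 18 lost the call without acupuncture replicate 1 (adjusted p 0.0592 to 0.287), among them Nfkbia, Arid5a, Zc3h12a, Nr4a2, Nr4a3, Has1, Has2, Cd55, Dpt, Col15a1, Bgn and C1qc. Without acupuncture replicate 2, 10 lost it (adjusted p 0.0564 to 0.322), and Dpt lost it without dysentery replicate 2 (adjusted p = 0.0907). Il6 had no test result when acupuncture replicate 1 or 2 was left out, so its call was not checked there. The balance turned without acupuncture replicate 2, to 24 higher and 52 lower. DESeq2 called 52 genes, all of them among the 177, 28 higher and 24 lower. It ended the calls of 16 genes named here, Cxcl1, Ptx3, Nfkbiz, Nfkbia, Zc3h12a, Arid5a, Nr4a2, Nr4a3, Has1, Has2, Cd55, Dpt, Igfbp7, Hbb-b1, Myoc and S100a9 (DESeq2 adjusted p 0.0770 to 1). With no filter on low counts 553 were called.

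Of 8 enzymes and transporters tested, 0 passed with edgeR and 0 with DESeq2, while 3 had an unadjusted p under 0.05 with edgeR (median log2 difference 0.011). Without dysentery replicate 1, edgeR called 1 higher and 1 lower. Ptgs1, the constitutive cyclooxygenase, had 29.5, 26.0, 55.4 and 106 CPM against 20.9, 22.0, 37.8 and 88.0 CPM (log2 difference 0.34 ± 0.083, adjusted p = 0.0667). Pla2g4a, the cytosolic phospholipase that releases arachidonic acid, had 49.6, 50.1, 67.7 and 71.5 CPM against 36.2, 41.0, 57.9 and 57.8 CPM (log2 difference 0.32 ± 0.074, adjusted p = 0.0542). Both were above the negative cells in each of the 4 libraries without passing the test. Pla2g2a, a secreted phospholipase, had 105, 24.1, 325 and 139.8 CPM against 293, 195, 123 and 239.7 CPM, with positive cells lower in 3 libraries and higher in dysentery replicate 1 (log2 difference -0.997 ± 0.44, adjusted p = 0.407). All 8 prostaglandin receptors with a row fell under the filter on low counts and were not tested. No row carried the symbol Ptges, the inducible prostaglandin E synthase, so its level is not given.

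Acupuncture and dysentery members were then compared directly, each library as 1 sum over all its members, in edgeR's quasi-likelihood test without a block. Of 10843 genes tested, 630 were called (5.81%), 422 higher (3.89%) and 208 lower (1.92%) with acupuncture. The same comparison in the matched Ptgs2-negative cells called 257 of 10694 genes (2.40%), 161 higher (1.51%) and 96 lower (0.898%). The 2 counts come from sums of different size and do not show that the cells respond differently. The interaction below tests that for these 2 classes of cell. Members also held more Ptgs2 UMIs with acupuncture, and the part of this in the calls was not tested.

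Inflammatory mediators led the rises in the members. Il6 stood at 260.2 and 211 CPM with acupuncture and 0 and 0.896 CPM without, from 1753, 2616, 0 and 5 UMIs (adjusted p = 1.11e-05). Cxcl3, another neutrophil chemokine, had 229, 206, 0 and 1 UMIs (adjusted p = 0.000537). Ptx3 had 1227, 3704, 1 and 11 UMIs (adjusted p = 3.15e-05). No fold is given for these 3 because the dysentery libraries hold so few molecules. Cxcl1 stood at 2942 and 3091 CPM with acupuncture and 37.1 and 139.9 CPM without (log2 difference 5.04 ± 0.50, adjusted p = 0.000515), Nfkbiz at 411 and 261 CPM with acupuncture and 17.0 and 11.3 CPM without (log2 difference 4.69 ± 0.26, adjusted p = 2.76e-05) and Atf3 at 1564 and 1339.8 CPM with acupuncture and 82.99 and 49.1 CPM without (log2 difference 4.54 ± 0.24, adjusted p = 2.3e-05). Nfil3, a leucine zipper repressor, stood at 87.0 and 65.1 CPM with acupuncture and 4.40 and 1.43 CPM without (log2 difference 5.14 ± 0.32, adjusted p = 4.7e-05). In each of these genes both acupuncture libraries lay far above both dysentery libraries. Of 13 chemokines tested, 8 rose and 1 fell (median 2.24, against 0.0091 over all genes). Of 26 immediate early genes, 20 rose and 0 fell (median 2.25), and of 14 chaperones 8 rose and 0 fell (median 1.55).

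In the matched Ptgs2-negative cells, 14 of 24 immediate early genes (median 1.26), 8 of 14 chaperones (median 0.78) and 3 of 11 chemokines (median 1.33) were called higher. Without dysentery replicate 1 the chaperones called higher there were 4 of 14. Lumican rose in both kinds of cell. It stood at 392 and 577 CPM with acupuncture and 74.2 and 37.6 CPM without in members (log2 difference 3.23 ± 0.32, adjusted p = 0.000515) and at 679.5 and 622 CPM with acupuncture and 125 and 65.8 CPM without in negative cells (log2 difference 2.78 ± 0.26, adjusted p = 0.00108).

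Fewer genes fell than rose with acupuncture. Cxcl13, a B cell-attracting chemokine, stood at 62.2 and 49.1 CPM with acupuncture and 561 and 269 CPM without in members (log2 difference -2.85 ± 0.30, adjusted p = 0.000685) and fell in negative cells too (-2.31 ± 0.15, adjusted p = 0.000131). Olfml2a, a secreted matrix protein, stood at 8.91 and 9.66 CPM with acupuncture and 48.4 and 93.1 CPM without (log2 difference -2.95 ± 0.29, adjusted p = 0.00048). Chst1, a sulfotransferase (-3.80 ± 0.43), Duox1, a peroxide-generating oxidase (-1.95 ± 0.28), Ccl5, a T cell chemokine (-2.83 ± 0.63), Hba-a3, a haemoglobin chain (-3.01 ± 0.41), and the unnamed gene AABR07060872.1 (-3.20 ± 0.46) were also among the largest falls, at adjusted p from 0.00109 to 0.035. Il33 stood at 1250.4 and 1059 CPM with acupuncture and 1892 and 2122 CPM without in members (log2 difference -0.77 ± 0.15, adjusted p = 0.019), and its change in negative cells was -0.88 ± 0.16. In the prostaglandin list, 3 of 8 fell and 0 rose: Hpgd, which inactivates prostaglandins (-1.81 ± 0.35, adjusted p = 0.0203), Ptgs1 (-1.64 ± 0.26, adjusted p = 0.00665) and Pla2g4a (-0.55 ± 0.13, adjusted p = 0.0412). Ptgs1 fell in the negative cells too (-1.68 ± 0.32, adjusted p = 0.0298). There Ptgs1 and Il33 lost the call without acupuncture replicate 1, acupuncture replicate 2 or dysentery replicate 2 (adjusted p 0.138 to 0.256 for Ptgs1 and 0.134 to 0.178 for Il33). Of 16 telocyte-associated and progenitor genes, 0 were called in either kind of cell with edgeR, while 5 had an unadjusted p under 0.05 in each, and DESeq2 called 0 in members and 1 in negative cells. Without dysentery replicate 1, edgeR called 1 higher and 1 lower in members and 1 higher in negative cells.

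Markers of other cells differed between the groups within the members. C1qa, C1qb and C1qc were higher with acupuncture, Lyz2 lower, and the other 7 of 11 macrophage markers tested were not called. The macrophage list summed to 325, 269.8, 245 and 218 CPM. The 8 neutrophil markers summed to 251 and 227 CPM with acupuncture against 434 and 418 CPM without, and 1 of 4 tested fell, Il1r2. Of the mural and the platelet and red cell lists, Des and Pf4 rose and Hba-a3 fell. The 6 B cell markers summed to 0.742 and 2.42 CPM with acupuncture against 22.0 and 10.9 CPM without. The part of such RNA in the group difference was not tested. Without dysentery replicate 2 the count in members fell to 183, and 6 of 38 called genes named here lost the call (Cebpd, Il33, Ptgs1, Pla2g4a, Hpgd and Hba-a3, adjusted p 0.0767 to 0.302). Pla2g4a also lost it without each of the other 3 libraries (adjusted p 0.107, 0.0923 and 0.0520, leaving out acupuncture 1 and 2 and dysentery 1). DESeq2 ended the calls of Pla2g4a and Ccl5 in members and of Ccl2 in negative cells. In negative cells the count was 116, 122 and 74 without acupuncture replicate 1, acupuncture replicate 2 or dysentery replicate 2.

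Whether acupuncture changed a gene more in Ptgs2-positive than in matched negative cells was tested by the interaction of status and group, with the library as a block. Of 11147 genes tested, 108 were called (0.969%), 101 with a higher log2 change in positive cells (0.906%) and 7 with a lower one (0.0628%). In the same fit, the 101 are the genes whose log2 difference between positive and negative cells was higher with acupuncture than without. Being Ptgs2-positive did not mean the same Ptgs2 level in the 2 groups. Cells with 10 or more Ptgs2 UMIs were 32.7% and 44.4% of all members with acupuncture and 3.68% and 2.03% without. The part of this shift in the interactions was not tested. By list, 17 of 26 immediate early genes (median 0.78), 6 of 14 chaperones (median 0.67), 6 of 11 C/EBP and cAMP response genes (median 0.85), 3 of 18 NF-kB genes (median 0.66), 3 of 7 hyaluronan genes (median 0.63) and 2 of 13 chemokines (median 0.39) were called higher in positive cells. The median over all genes was 0.010.

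Ccl2, the main monocyte-attracting chemokine, shows the pattern in full. In positive cells it stood at 2652 and 1918 CPM with acupuncture and 122 and 338 CPM without, and in negative cells at 904 and 491 CPM with acupuncture and 171 and 280.4 CPM without. Positive cells were thus at 2.94 and 3.903 times the negative cells with acupuncture and at 0.714 and 1.21 times without. The acupuncture change was 3.50 ± 0.40 in all members and 1.56 ± 0.29 in negative cells, and the interaction 1.78 ± 0.16 (adjusted p = 1.68e-05). Over all 4 libraries the positive-against-negative difference of Ccl2 did not pass (0.97 ± 0.29, adjusted p = 0.166). Ccl7, its neighbour in function, changed by 2.24 ± 0.32 in members (adjusted p = 0.00381) and by 1.16 ± 0.30 in negative cells (adjusted p = 0.0973). Ccl7 had no called interaction, the 2 chemokine calls being Ccl2 and Cxcl1, so no difference between the kinds of cell is shown for it. Cxcl1 changed by 5.04 ± 0.50 in members and 3.33 ± 0.30 in negative cells, with an interaction of 1.48 ± 0.14 (adjusted p = 1.84e-05). Il6, with almost no counts in the dysentery libraries, did not pass (adjusted p = 0.9).

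Tnfaip6 and Edn1 had some of the largest interactions. Tnfaip6 stood at 418 and 249 CPM with acupuncture and 44.3 and 33.9 CPM without in positive and 208 and 100.3 CPM with acupuncture and 87.9 and 43.8 CPM without in negative cells (log2 difference 1.80 ± 0.17, adjusted p = 1.84e-05). Positive cells were higher in both acupuncture libraries and lower in both dysentery libraries. Edn1, endothelin-1, a vasoconstrictor peptide, stood at 50.0 and 134 CPM with acupuncture and 28.0 and 37.2 CPM without against 7.44 and 31.8 CPM with acupuncture and 33.9 and 33.6 CPM without (log2 difference 2.26 ± 0.22, adjusted p = 1.84e-05). Has1, the synthase whose product Tnfaip6 modifies, had an interaction of 1.21 ± 0.18 (adjusted p = 0.00138) and Has2 one of 0.63 ± 0.12 (adjusted p = 0.0164). RGD1564664, a gene with no descriptive symbol in the files, stood at 341 and 125 CPM with acupuncture and 27.4 and 26.6 CPM without against 120.1 and 28.6 CPM with acupuncture and 29.9 and 35.8 CPM without (log2 difference 2.15 ± 0.21, adjusted p = 1.84e-05).

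Transcription factors and feedback genes of the acute response followed. Nfkbia had an interaction of 1.27 ± 0.10, Nfkbiz of 1.59 ± 0.25, and Sod2, the mitochondrial superoxide dismutase that NF-kB induces, of 1.02 ± 0.11, with adjusted p of 8.18e-06, 0.00225 and 8.31e-05. Cebpb and Cebpd, C/EBP factors of the acute phase, had interactions of 1.03 ± 0.10 and 0.85 ± 0.12 (adjusted p = 3.38e-05 and 0.000617). Cebpd stood at 787 and 548 CPM with acupuncture and 334 and 316 CPM without in positive and 383 and 324 CPM with acupuncture and 279 and 321 CPM without in negative cells, and its acupuncture change was called in members (1.06 ± 0.18) and not in negative cells (0.20 ± 0.15, adjusted p = 0.586). Zfp36, which speeds the decay of cytokine and Ptgs2 mRNA, had an interaction of 1.01 ± 0.10 (adjusted p = 3.38e-05), and Arid5a of 1.85 ± 0.30 (adjusted p = 0.00296). Among immediate early genes, Gadd45a stood highest of those named, at 1.85 ± 0.18 (adjusted p = 1.84e-05). Nr4a1 (1.19 ± 0.16), Klf6 (1.03 ± 0.087), Atf3 (1.01 ± 0.15), Junb (0.97 ± 0.085) and Fos (0.63 ± 0.10) followed, at adjusted p from 9.03e-06 to 0.00295. Of the chaperones, Hspb1 had 0.98 ± 0.11 (adjusted p = 8.31e-05) and Hsp90aa1 0.78 ± 0.11 (adjusted p = 0.000617). Il4r, the receptor chain for interleukin-4 and interleukin-13, stood at 257, 172, 101 and 102 CPM in positive and 140.2, 111, 96.4 and 92.6 CPM in negative cells (log2 difference 0.68 ± 0.13, adjusted p = 0.0151). Mt1, a metallothionein induced by metals and glucocorticoids, had 1.36 ± 0.28 (adjusted p = 0.0218).

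**Figure D4:**
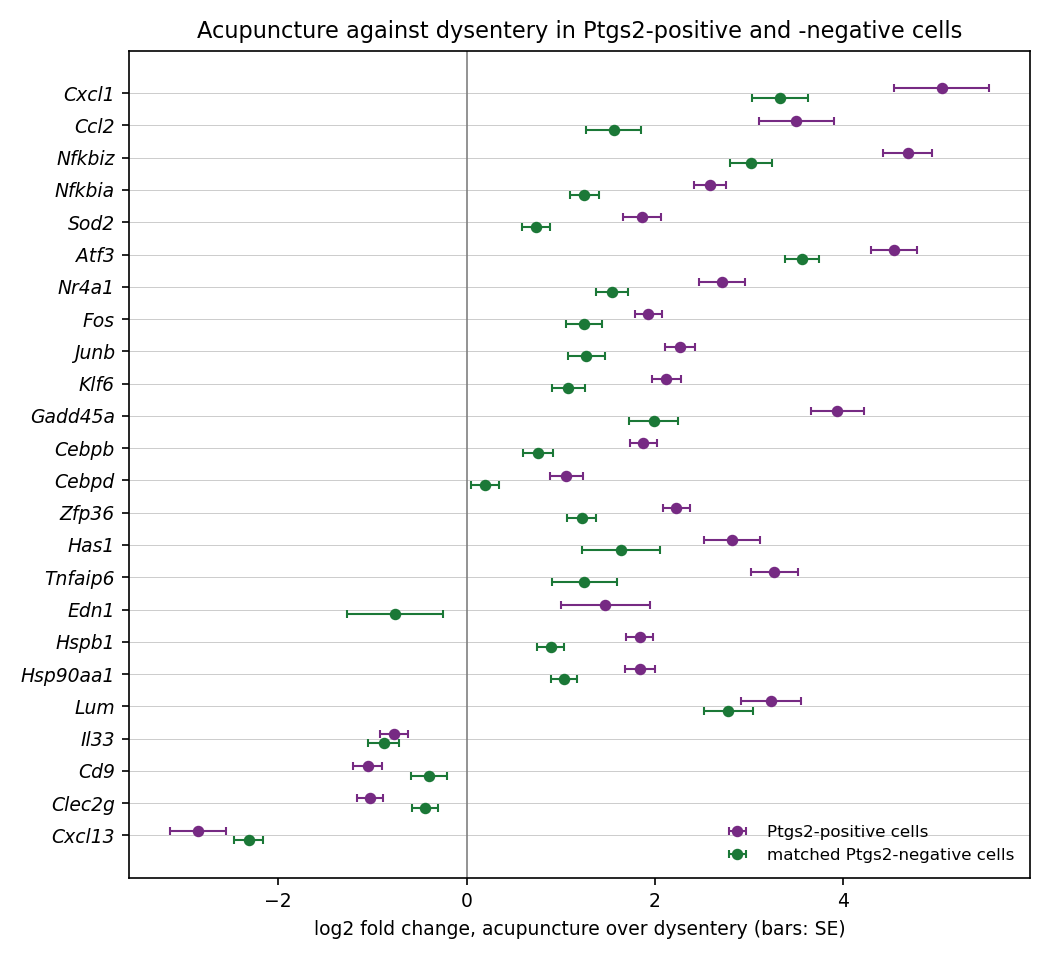
Log2 fold change of acupuncture over dysentery (x axis) for 24 genes (y axis), in all Ptgs2-positive Cd34+ Pdgfra+ cells and in their matched Ptgs2-negative cells. Points are edgeR estimates over 2 libraries a group with SE bars, the SE being taken from the test. Members held more Ptgs2 UMIs with acupuncture than without. Ccl2 lies at 3.50 in positive and 1.56 in negative cells, while Il33 lies at -0.77 and -0.88.

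Some of the largest interactions rest on few cells. S100a9 (log2 difference 2.59 ± 0.29, adjusted p = 8.31e-05) and S100a8 (log2 difference 2.52 ± 0.48, adjusted p = 0.013) are neutrophil genes, and 1 cell held 70.4% and 89.3% of the S100a9 UMIs in the matched positive cells of acupuncture replicates 1 and 2. Smoc2, a matrix calcium-binding protein, had the largest value (log2 difference 2.96 ± 0.40, adjusted p = 0.000617), and its positive cells stood at 17.5, 44.9, 7.82 and 1.47 CPM against 34.0, 44.4, 99.6 and 8.25 CPM, at 0.514 and 1.01 times the negative cells with acupuncture and 0.0785 and 0.178 times without. On the other side, Hba-a2 (log2 difference -3.16 ± 0.61, adjusted p = 0.0139) had 96.0% of its UMIs in the matched negative cells of acupuncture replicate 1 in 1 cell. Pla2g2a (log2 difference -2.16 ± 0.48, adjusted p = 0.0437), Cd9, a tetraspanin (log2 difference -0.57 ± 0.13, adjusted p = 0.0402), and Clec2g, a lectin-like receptor (log2 difference -0.46 ± 0.092, adjusted p = 0.0188), were lower in positive than in negative cells with acupuncture. Cd9 stood at 284, 252, 612 and 487 CPM in positive and 523, 326, 561 and 526 CPM in negative cells, and Clec2g at 320.3, 332, 619 and 622 CPM and 493, 441, 584 and 654 CPM. Leaving out dysentery replicate 2 ended 6 of the 31 interaction calls named here (Nfkbiz, Atf3, Nr4a1, Has2, Arid5a and Mt1, adjusted p 0.0612 to 0.737), leaving out acupuncture replicate 1 ended those of Cd9, Clec2g and Il4r (adjusted p 0.0666 to 0.243), and leaving out acupuncture replicate 2 that of Has2 (adjusted p = 0.0839). DESeq2 called 51 interactions, 51 higher and 0 lower, so that Hba-a2, Pla2g2a, Cd9 and Clec2g lost the call, as did Has2, Arid5a, Il4r and Mt1 (adjusted p 0.0865 to 1). The count of edgeR calls was 185 without acupuncture replicate 2 and 186 without dysentery replicate 1.

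Within the acupuncture libraries, the inflammatory genes were higher in cells with more Ptgs2. In acupuncture replicate 1, Cxcl1 stood at 583, 653, 1925, 2099 and 5203 CPM in cells with 0 (matched), 1, 2 to 4, 5 to 9 and 10 or more Ptgs2 UMIs. In acupuncture replicate 2 the values were 567, 1153, 1484, 1718 and 4663 CPM. Ccl2 was 904, 1017, 2604, 2488 and 4535 CPM in acupuncture replicate 1, and Nfkbiz 99.8, 128, 295, 392 and 646 CPM. Cells with a single Ptgs2 UMI were thus close to matched negative cells for Cxcl1 in acupuncture replicate 1, and the cells with 10 or more were highest. Cxcl1 in dysentery replicate 2 was 73.0, 102, 151, 243 and 116 CPM over the same steps, the last from 12 cells. In dysentery replicate 1 it was 33.2, 21.6, 20.6, 8.39 and 457 CPM, and there the classes of 5 to 9 and 10 or more held 9 and 5 cells. Pi16 did not climb in the same way in the acupuncture libraries. It stood at 3169, 3939, 3766, 4139 and 3772 CPM in acupuncture replicate 1 and at 3187, 3643, 3640, 3527 and 3403 CPM in acupuncture replicate 2. In dysentery replicate 2 Pi16 rose at each step, at 2868, 3400, 3425, 3689 and 3750 CPM. In dysentery replicate 1 it was 1859, 1955, 2750, 3884 and 2759 CPM. Cells with more Ptgs2 UMIs are also deeper, Ptgs2 chose the classes, and the same cells supply both values, so these levels carry no test.

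**Figure D5:**
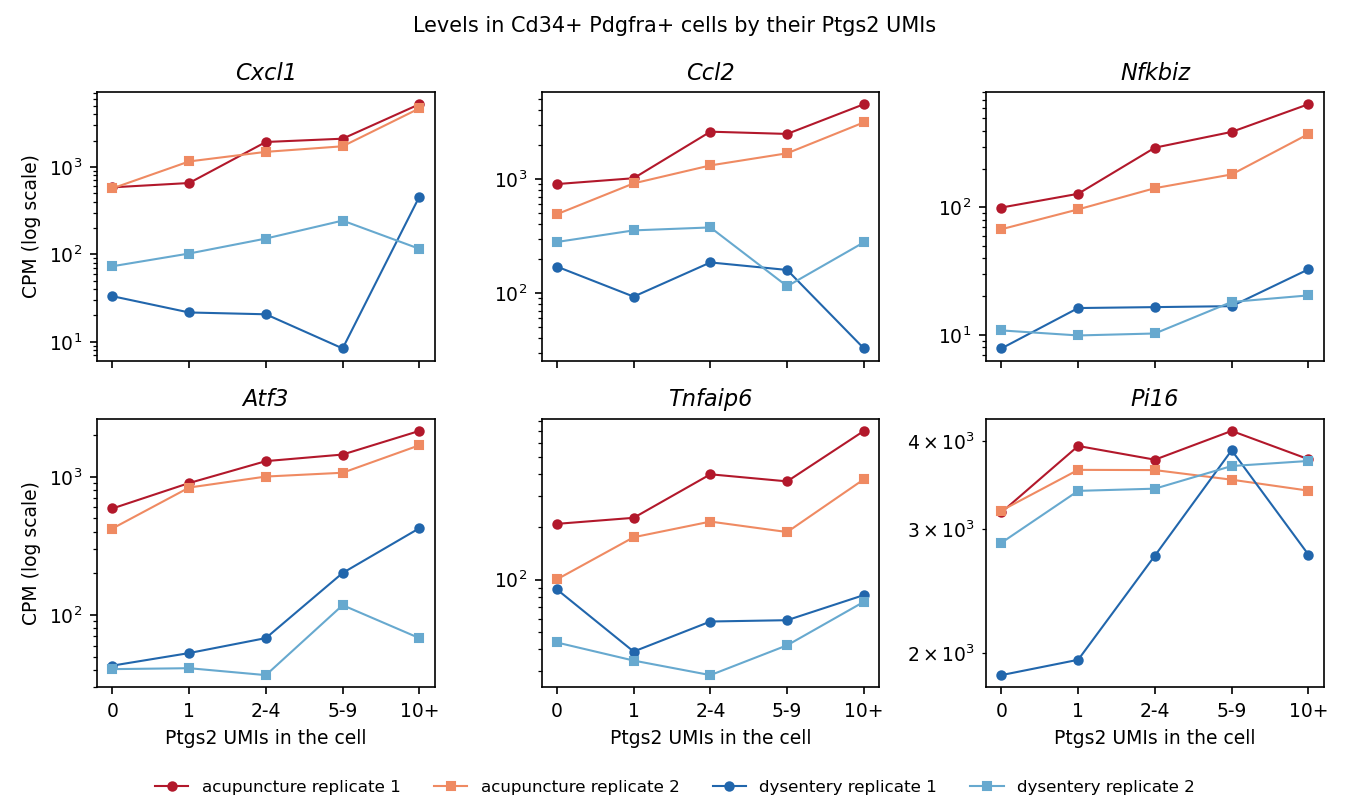
Level of 6 genes (y axis, CPM, log scale) in Cd34+ Pdgfra+ cells grouped by their Ptgs2 UMIs (x axis, 0 being the depth-matched negative cells), 1 line per library. Cxcl1 climbs to 5203 and 4663 CPM in the acupuncture libraries, while the right-hand dysentery points rest on 5 to 70 cells.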

How the data were processed

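Single-cell RNA libraries of 4 fascia samples were made with droplet chemistry that counts the 3′ end of transcripts. Per the submitters' processing notes, the authors used Cell Ranger 6.0.1 and STAR; the builds named there are mRatBN7.2 and GRCh38.p13, with no role given. Values in the deposited matrices are whole UMI counts, not normalized. The other kinds of deposited file, with cell barcodes and gene names, carry no measurement. There were 30560 gene rows.

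Cells needed at least 300 genes and at most 20% mitochondrial UMIs (13 genes). Doublets were kept, and Scrublet (scanpy 1.11.5) removal was an alternative. Negative cells were matched 1 to 1 within 0.1 on log2 UMIs without Ptgs2. Sums were tested with edgeR 4.0.16 (TMM, filterByExpr minimum count 10, Benjamini-Hochberg at 0.05), with DESeq2 1.42.0 as an alternative. Means and differences are log2 with standard errors (SE). For edgeR the SE was derived from the test, as the absolute log2 difference divided by the square root of its F statistic. The order of 4 values is acupuncture 1 and 2, dysentery 1 and 2. Intervals and floors (3 counts) cover counting error only.

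Members, tests and lists were chosen with earlier results of these data known. The rule for named genes took the 12 largest rises and 12 largest falls of positive against negative cells, and the 8 largest of each for the groups in members and for the interaction. These had to be called, to have libraries that all point one way or groups that do not overlap, and to reach a mean of 20 CPM. Up to 4 called members of each list by smallest p and a fixed set were added, and the text describes part of them. Some items are not reported here. The few other genes named were chosen after their values were seen. On simulated counts, the fit recovered 83.7% of 2-fold and 100% of 4-fold changes for positive against negative cells, 61.6% and 98.0% for the groups in members, 55.0% and 94.9% in negative cells, and 16.3% and 85.6% for the interaction, over 10573, 10832, 10682 and 11040 genes. False calls were 4, 10, 7 and 4. The simulated counts had the same dispersion for every gene and no difference between libraries other than depth and the set changes. The shares hold for that setting and are not the power of the tests on the data.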

Additional observations from a re-analysis of the deposited data

Results flagged for a closer look

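The genes listed here changed by different amounts with acupuncture in Ptgs2-positive and in matched Ptgs2-negative cells, by edgeR's interaction test over 2 libraries a group. Each value is the log2 change in positive cells minus that in negative cells. Every value passed an adjusted p under 0.05, as given in the report for each gene. Members also held more Ptgs2 UMIs with acupuncture, and the part of this in the values was not tested.

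Among secreted signals, the value was 2.26 for Edn1, 1.80 for Tnfaip6, 1.78 for Ccl2 and 1.48 for Cxcl1. The hyaluronan synthases had 1.21 (Has1) and 0.63 (Has2). NF-kB genes had 1.59 (Nfkbiz), 1.27 (Nfkbia) and 1.02 (Sod2). Regulators of mRNA decay had 1.85 (Arid5a) and 1.01 (Zfp36). Immediate early genes had 1.85 (Gadd45a), 1.19 (Nr4a1), 1.03 (Klf6), 1.01 (Atf3), 0.97 (Junb) and 0.63 (Fos). C/EBP factors had 1.03 (Cebpb) and 0.85 (Cebpd), and chaperones 0.98 (Hspb1) and 0.78 (Hsp90aa1). Mt1 had 1.36, Il4r 0.68 and RGD1564664 2.15.

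The largest positive values were 2.96 for Smoc2, 2.59 for S100a9 and 2.52 for S100a8. In the matched positive cells, 1 cell held 83.3% of the Smoc2 UMIs in dysentery replicate 1 and 89.3% of the S100a9 UMIs in acupuncture replicate 2. Negative values, a lower log2 change in positive cells, were -3.16 for Hba-a2, -2.16 for Pla2g2a, -0.57 for Cd9 and -0.46 for Clec2g.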

How the results depend on the processing

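Of the 177 genes called between positive and negative cells, DESeq2 called 52, with 53.8% higher against 65.0%. No filter on low counts gave 553 calls, Ptgs2 from 2 UMIs 318, and leaving out 1 library 43 to 290. For the groups in members (630 calls), no filter gave 1399 and leaving out 1 library 183 to 793. In negative cells (257 calls), no filter gave 902 and leaving out 1 library 74 to 244. For the interaction (108 calls), DESeq2 gave 51, no depth match 199 and leaving out 1 library 132 to 186. The cause of these moves was not tested. Replicate numbers are shared between the groups, and same-numbered libraries deviated together with correlations of 0.066 in members and 0.18 in negative cells over only 2 pairs, so the numbers were not taken as pairs. With a replicate block, 890 genes were called in members and 959 in negative cells.

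The Ptgs2 share difference (8.53 points) was 7.84 at 1000 UMIs, 18.8 unthinned and 14.9 at 5000 UMIs, the last chosen after seeing the data, and 1.86 to 15.2 without 1 library. Interactions that turned sign were S100a8 with doublets removed (-0.0041), Hba-a2 without depth matching (0.097) and Pla2g2a with Ptgs2 from 2 UMIs (0.24). With 2 libraries a group, small changes can be missed: on simulated counts the interaction test recovered 16.3% of changes of 1 on the log2 scale. In the data, some interactions under 1 were called, such as Fos at 0.63. The simulated share is an average over genes and does not say which single genes can be called.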

Other observations

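Csn1s1, a milk casein, had UMIs in the Cd34+ Pdgfra+ cells of some libraries. Summed over the matched Ptgs2-negative cells it stood at 737 CPM in acupuncture replicate 1 and 322 CPM in dysentery replicate 1. In acupuncture replicate 2 it had 0 UMIs in those cells, and in dysentery replicate 2 it stood at 0.734 CPM. Among the members of acupuncture replicate 1 it stood at 283 CPM in cells with 1 Ptgs2 UMI and at 14.4 CPM in cells with 10 or more. The source of this RNA was not tested.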
